A study of Caenorhabditis elegans with 6 samples.

Results

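NHR-25 sites on the left arm of the X chromosome were followed through a ChIP-seq map of the nuclear receptor NHR-25 in Caenorhabditis elegans larvae of the L2 stage. The left arm was taken as the stretch of X below 6.14 Mb on the WormBase build WS220, and a site belonged to it when the midpoint of its interval in the combined peak list lay there. The rule used position alone and found 366 of the 6029 peaks of the combined list. The 366 peaks formed 350 separate regions after overlapping intervals were joined and covered 140 kb.

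All samples were hermaphrodites of strain OP33, which carries the allele unc119(ed3) and the integrated transgene wgIs33, made of nhr-25 with the tags TY1, EGFP and FLAG and of an unc119 marker. The worms were raised at 20 °C and fixed with 2% formaldehyde. Antibodies against GFP were used to pull down NHR-25 in 3 ChIP samples, and 3 input samples were kept from the same kind of extract and were not analysed here. The transgene was introduced by bombardment and, per the labels, the strain had not been outcrossed. The labels name no deletion of the untagged nhr-25 gene and no promoter of the transgene, so the map shows where the tagged protein was found in whole larvae, with all tissues pooled. No label tells if the 3 replicates were separate cultures, and their spread may be technical.

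NHR-25 belongs to the NR5 family of receptors, which bind DNA as single molecules and include Drosophila FTZ-F1 and mammalian SF-1. It is known for roles in the epidermis, in molting and in the development of the vulva and the gonad. On the worm autosomes, essential and conserved genes are concentrated in the chromosome centres while recombination is high in the arms, and X is known to be more even in both respects. X is also the chromosome on which the dosage compensation complex lowers expression in hermaphrodites.

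The authors ranked the peaks of each list by number, with 1 for the first peak. Their value for a peak, an estimated false discovery rate (FDR) on a −log10 scale, has a ceiling that many peaks share. It stood at 3.96 in the combined list and at 3.93, 3.73 and 3.92 in replicates 1, 2 and 3. On the left arm 277 of 366 peaks were at the ceiling (75.7%, exact 95% interval 71 to 80%), against 75.4% of all combined peaks. Peak numbers were therefore used for strength. The replicate lists run to 30000, 29241 and 30000 peaks and end at FDR estimates of 0.843, 0.99 and 0.888, so comparisons at matched size used the first 6029 peaks of each replicate, called its top list. Those ended at estimates of 0.0104, 0.00556 and 0.0117. The lists hold no read counts, and the depth behind a peak is unknown.

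The left arm carried some of the strongest NHR-25 sites of the genome, and every replicate placed its leading sites near the top. The first was on X from 2996752 to 2997419 and held number 19 in the combined list and numbers 12, 28 and 31 in replicates 1, 2 and 3. The next, from 5840895 to 5841453, was number 29 in the combined list and 30, 33 and 25 in the replicates. These positions lie far apart on the arm, and the order of the pair changed in replicate 3, where the latter came first. The best peaks of the X centre and the right arm stood higher in the combined list, at numbers 11 and 12.

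The site from 1504732 to 1505196 was number 37 in the combined list and 35, 19 and 73 in replicates 1, 2 and 3, the highest left-arm place in replicate 2. The site from 5429280 to 5429755 was number 42, and 67, 31 and 38 in the replicates. Both moved by more places between replicates than the site from 5840895 did. The site from 806492 to 806895 was number 56, and 53, 44 and 71 in the replicates. The site from 2242812 to 2243157 was number 59, and 62, 52 and 74 in the replicates. The site from 4208953 to 4209557 was number 65, and 58, 78 and 55 in the replicates. Replicate 3 gave the lowest place of the 3 replicates to the first pair of these and the highest to the last.

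The largest disagreement among the first 10 was at 2364725 to 2365093, number 101 in the combined list, which was number 74 in replicate 1 and 69 in replicate 3 but 364 in replicate 2, a ratio of 5.28 between the highest and the lowest number. The site from 1344860 to 1345227 agreed best, at number 163 in the combined list and 185, 174 and 174 in the replicates. The site from 1446802 to 1447152 completed the 10 with number 170, and 130, 220 and 164 in the replicates. All 10 were within the first 364 peaks of every replicate, their midpoints lay at most 56 bp from the combined ones, and their widths ran from 346 to 668 bp. The 10 were taken by their combined number, and that list and the replicate lists come from shared ChIP samples, so their high places in the replicates describe them and test nothing.

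**Figure D1:**
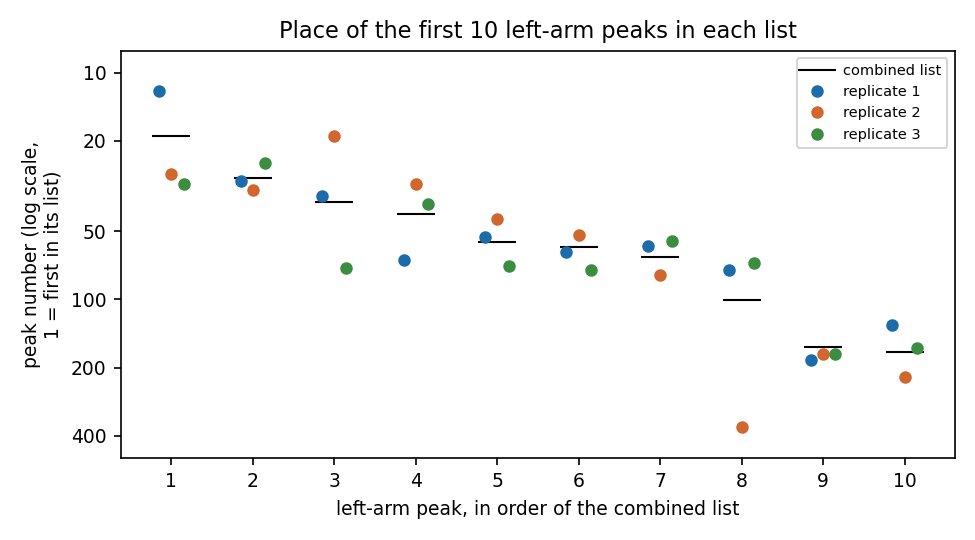
Peak number (log scale, 1 at the top of its list) of the first 10 left-arm peaks, in the order of the combined list, with a black dash for the combined list and a coloured point for each of the 3 replicates. The points are farthest apart for the peak in position 8, which was number 364 in replicate 2 and 74 and 69 in the other two.

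The other 25 left-arm peaks among the first 500 of the combined list had numbers from 208 to 497. Their best overlapping peaks had numbers from 116 to 672 in replicate 1, 228 to 871 in replicate 2 and 173 to 576 in replicate 3. In all, 35 left-arm peaks were among the first 500 (9.56%, exact 95% interval 6.75 to 13%), where the combined list as a whole has 8.29%. Among the first 1000 there were 66 (18%, 14.2 to 22.4%), against 16.6% of all combined peaks. The median number of the left-arm peaks was 3072, where that of the whole list is 3015. The left arm thus held strong and weak sites in about the proportions of the genome, and the intervals include the genome-wide shares.

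Strong sites were spread over most of the arm, in part in loose groups. The median distance between neighbouring sites among the first 500 was 122 kb and the longest 660 kb. A stretch of 283 kb, from 1344860 to 1627363, contained 6 of the 35, with combined numbers 163, 276, 170, 349, 37 and 236 from left to right. Another 5 lay from 2858406 to 3128061 (270 kb), among them the first site of the arm, and 5 more from 4132419 to 4389228 (257 kb). The closest pair lay at 3787374 to 3787898 and 3788350 to 3789045, with midpoints 1.06 kb apart. The first of that pair was number 208 in the combined list and 161, 309 and 182 in replicates 1, 2 and 3. The other was number 239, and 116, 523 and 374 in the replicates. Only this pair of the 35 had another such site within 2000 bp.

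Sites were unevenly spread along the arm, with the sparsest bins near the chromosome's left end. The first 500 kb held 10 combined peaks and 13, 15 and 11 top-list peaks of replicates 1, 2 and 3, none of the 10 among the first 500 of the combined list. The best of them, from 410045 to 410322, was number 701, and 945, 679 and 666 in the replicates. The bin from 1.5 to 2 Mb held 9 combined peaks and 11 top-list peaks in each replicate. It was sparse but not weak, since 2 of its 9 peaks were among the first 500, those from 1504732 and from 1626970.

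In the combined list the densest full bin ran from 2.5 to 3 Mb, with 48 combined peaks and 51, 43 and 53 top-list peaks. It contains the first site of the arm. The bin from 4.5 to 5 Mb followed with 43 combined peaks (46, 45 and 37 in the replicates) and the bin from 5.5 to 6 Mb with 42 (42, 37 and 39). The replicates differed most at 2.5 to 3 Mb, where the 3 counts had an SD of 5.29; the SD of every other bin was at most 4.93. The spread between replicates was thus small beside the difference between the bins at 1.5 to 2 Mb and at 2.5 to 3 Mb, whose counts do not overlap. These were the sparsest and the densest full bin of the combined list, picked after the counts were seen, so their separation tests nothing.

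The full replicate lists had the same sparse bins. They held 86, 68 and 95 peaks in the first 500 kb and 73, 78 and 79 from 1.5 to 2 Mb, against 209, 207 and 229 from 2.5 to 3 Mb. Every other bin of 500 kb had at least 112 peaks in each full list. The calls below the top lists and the top-list calls were therefore low in the same places. Whether the sequence can be mapped equally well there was not tested.

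**Figure D2:**
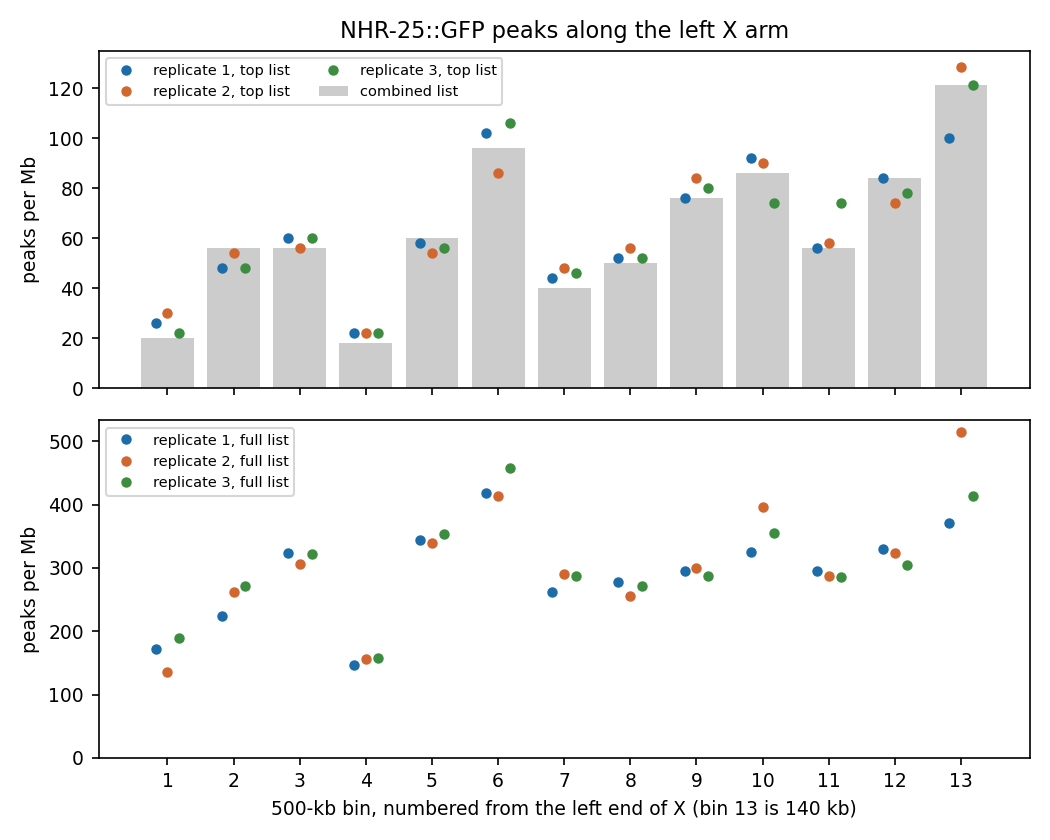
Peaks per Mb in 500-kb bins of the left X arm, numbered from the left end, in the combined list and the replicates' top lists (upper panel) and in the replicates' full lists (lower panel). Bins 1 and 4 are the lowest in both panels, and bin 13 covers only the last 140 kb. Bin 6 is the highest of the full-size bins except in the top list of replicate 2, where bin 10 is.

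The difference between the outer and inner parts of the arm was larger than the spread between replicates. The cut at 2 Mb was chosen after the bins had been seen, so a lower outer density was built into it and tests nothing. The first 2 Mb held 75 combined peaks, 37.5 per Mb, and the remaining 4.14 Mb held 291, or 70.3 per Mb. In the top lists the densities were 39.2 ± 1.26 and 71.6 ± 0.848 peaks per Mb (SD, n = 3). Their ratio was 0.547 ± 0.024 and below 1 in all 3 replicates, and no p is given for a cut chosen in this way. In the full lists the ratio was 0.68 ± 0.0349. The first 500 combined peaks showed less of a difference. From left to right, the 500-kb bins of the first 2 Mb held 0, 3, 5 and 2 of them, and the later full bins 2 to 5 each.

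The longest gaps were also near the left end. From the chromosome's first base to 325585, a stretch of 326 kb, there was no combined peak, and replicates 1, 2 and 3 had 0, 0 and 1 top-list peaks there and 27, 17 and 37 in their full lists. Between regions the longest gap ran over 231 kb from 1627364 to 1858536, with 1, 0 and 0 top-list peaks and 21, 20 and 21 peaks of the full lists. It begins right behind the site from 1626970 to 1627363, number 236 in the combined list and 198, 260 and 343 in the replicates. Gaps of 134 kb from 593689 to 727792 and of 131 kb from 1191962 to 1323126 came next, with at most 1 top-list peak in any replicate. The median gap between left-arm regions was 6.01 kb, against 4.28 kb in the X centre and 3.4 kb on the right arm. Gaps over 100 kb between regions numbered 5 on the left arm, 9 in the centre and 7 on the right arm.

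Within the arm, a few short stretches were crowded. Of the 350 regions, 141 (40.3%, exact 95% interval 35.1 to 45.6%) had another region's midpoint within 2000 bp, against 42.2% of all combined regions. The corresponding shares were 45% in the X centre (40 to 50.1%) and 45.5% on the right arm (40.5 to 50.6%), and the intervals overlap. The share on the left arm was 35.2, 35.9 and 38.6% in the top lists of replicates 1, 2 and 3. The same share over all regions of those top lists is not given here, so these values describe the left arm alone. The interval of the left arm includes the share of all combined regions. Nearness is mutual, so regions do not count independently and these intervals are likely too narrow.

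The densest windows of 30 kb held 10 regions each. The tighter of them took 16.2 kb, from 4132419 to 4148668, and the top lists of replicates 1, 2 and 3 had 9, 12 and 10 regions there. Of its 10 combined peaks 9 were at the ceiling and 8 were in the top list of every replicate. Its best peak, from 4142099 to 4142492, was number 379 in the combined list and 596, 232 and 297 in the replicates, and the peak at its left end, from 4132419 to 4132721, was number 439, and 549, 536 and 420. The weakest, from 4145984 to 4146423, was number 5861, and 5933, 4658 and 9578 in the replicates. Calls of very different strength thus lay side by side in this window.

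The other window ran from 2852546 to 2879962, with 10 combined peaks, 7 of them at the ceiling, and 10, 8 and 9 regions in the replicates' top lists. It was the less evenly recovered of the pair, with 5 of its 10 peaks in every top list. Its best peak, from 2858406 to 2858687, was number 497 in the combined list and 672, 502 and 557 in the replicates. The peak from 2853177 to 2853616 overlapped no peak of replicate 3 even in the full list, and the peak from 2874265 to 2874704 none of replicate 2.

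Listed widths on the left arm ran from 110 to 859 bp. The widest region of the left arm was the right end of the tighter crowded window, a single peak of 859 bp from 4147810 to 4148668 that overlapped 3, 4 and 2 separate peaks of replicates 1, 2 and 3. The next was 705 bp, from 5061738 to 5062442, made of 2 overlapping combined peaks, numbers 5406 and 5516. The third was the peak of 696 bp from 3788350, already described. At 440 bp, 69.4% of the left-arm peaks had the commonest width of the combined list (66.2% of all combined peaks). All 35 left-arm peaks among the first 500 had another width, and of the 185 peaks beyond number 3014, 181 (97.8%) had exactly 440 bp. Over all combined peaks 1 of the first 500 had this width, as did 95.2% of those beyond number 3014, so the left arm resembled the whole list here.

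A repeated interval affected 3 sites. The intervals from 864227 to 864677, 2891206 to 2891757 and 2996752 to 2997419 are each listed for 2 combined peaks, with numbers 295 and 2018, 279 and 5526, and 19 and 1226. The 366 peaks thus stand for 363 intervals, and a repeat carries the replicate values of the stronger peak.

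Compared with the rest of X, the left arm had the lowest density of strong sites. The centre was taken from 6.14 to 12.48 Mb and the right arm from there to the last base covered in any of the 4 lists. The combined list had 59.6 peaks per Mb on the left arm, 65.9 in the centre (418 peaks) and 79.4 on the right arm (416 peaks). In the top lists the left arm had 60.9, 60.9 and 61.2 peaks per Mb in replicates 1, 2 and 3, the centre 66.7, 70.7 and 67.7, and the right arm 74.3, 75.8 and 78.7. No value of the left arm reached a value of the other parts. The ratio of the left arm to the centre was 0.893 ± 0.0274 (SD, n = 3) and that to the right arm 0.801 ± 0.021, both below 1 in all 3 replicates (exact two-sided sign-flip permutation p = 0.25 for each, the smallest possible, so that the design cannot reach 0.05).

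The lower density against the centre depended on which peaks were counted. Without the first 2 Mb of X the ratio to the centre was 1.05 and that to the right arm 0.939; this stretch was left out because it had been seen to be sparse, so the ratios had to rise, and the other parts were not trimmed. When the full lists were counted, the direction turned, to 1.12, 1.07 and 1.19 in replicates 1, 2 and 3 (mean 1.13 ± 0.0647, exact sign-flip permutation p = 0.25). Against the right arm the full lists gave ratios of 0.97, 0.955 and 0.959.

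The turn followed the place of the peaks in the replicate lists, in a division by peak number also made after seeing the data. Among numbers 1 to 1000 the left arm held 65, 66 and 59 peaks in replicates 1, 2 and 3 and its density was 0.824 ± 0.0361 times that of the centre (SD, n = 3). The ratio was 0.821 ± 0.035 at 1001 to 3000 and 0.97 ± 0.0734 at 3001 to 6029, where replicate 3 was above 1 and replicates 1 and 2 below it. It was 1.12 ± 0.0484 at 6030 to 12000, 1.22 ± 0.0696 at 12001 to 20000 and 1.27 ± 0.129 beyond 20000. All 3 replicates were below 1 in the first 2 classes and above it in the last 3. Against the right arm the ratio went from 0.678 ± 0.0358 in the first class to 0.937 ± 0.0201 at 3001 to 6029. It was 1.09 ± 0.0455 at 12001 to 20000, above 1 in all 3 replicates, and 0.983 ± 0.0412 beyond 20000, where replicate 1 alone was above 1.

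**Figure D3:**
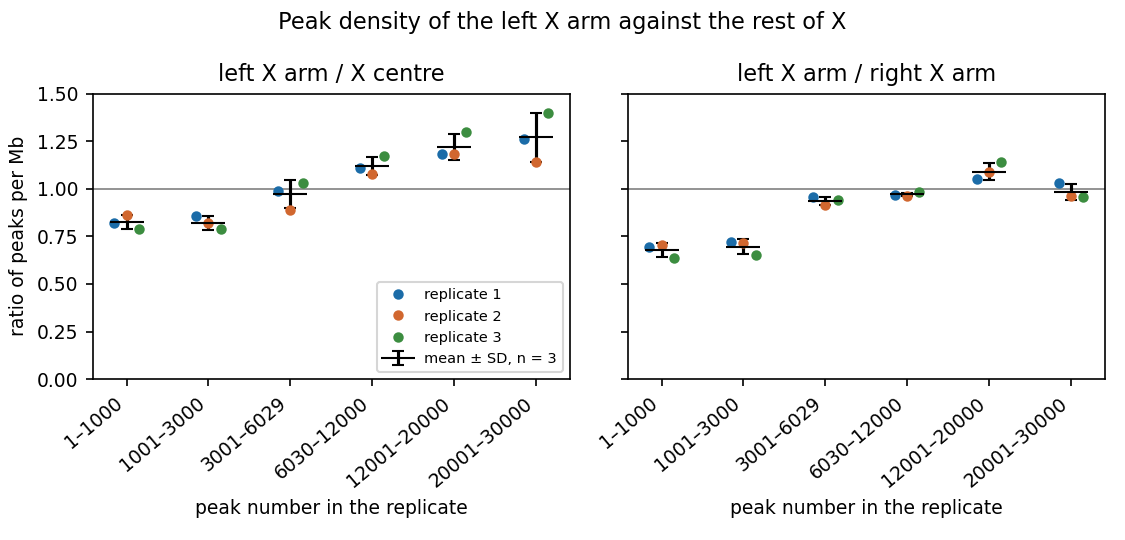
Ratio of peaks per Mb on the left X arm to the X centre (left panel) and to the right X arm (right panel), by peak number in each replicate, with a coloured point per replicate and a black dash with bars for the mean ± SD. Against the centre the means go from 0.824 in the first class to 1.27 in the last and cross the grey line at 1, while against the right arm they start at 0.678 and end at 0.983.

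Left-arm sites were followed in the replicates by overlap. Since the combined list was made from these ChIP samples, overlap with them was largely set in advance, and so was its fall towards the end of the list, where the top lists stop; the shares are descriptions. In the top lists of replicates 1, 2 and 3, 292, 288 and 282 of the 366 peaks were overlapped by at least 1 bp (79.8, 78.7 and 77%), against 80.2, 77.8 and 78.1% of all combined peaks. In every top list there were 203 (55.5%, exact 95% interval 50.2 to 60.6%), against 56.9% of all combined peaks. When the overlap had to cover 50% of both intervals, the left-arm share was 35%, and the share of all combined peaks is not given here. A further 98 were in 2 top lists (26.8%), 57 in 1 (15.6%) and 8 in none (2.19%). These shares were 22.2, 16.3 and 1.44% in the X centre and 23.6, 15.1 and 2.88% on the right arm. The best of those 8 was number 3865 in the combined list. The X centre had 60% (55.2 to 64.8%) and the right arm 58.4% (53.5 to 63.2%) in every top list, with intervals that overlap that of the left arm.

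Recovery fell with the place in the combined list. All 66 left-arm peaks among the first 1000 were in every top list, as were 52 of 53 at numbers 1001 to 2000 (98.1%); for all combined peaks these shares were 100 and 98%. At 2001 to 3000 there were 45 of 62 (72.6%), at 3001 to 4000 28 of 66 (42.4%), at 4001 to 5000 6 of 56 (10.7%) and beyond 5000 6 of 63 (9.52%). The shares of all combined peaks over the last 4 classes were 79.4, 41.1, 15.3 and 8.84%. Both series fell at each of these steps. Some late left-arm peaks overlapped a stronger combined peak and were matched to that peak's replicate calls. Number 5065, for example, was matched to numbers 610, 945 and 1549 in replicates 1, 2 and 3, as was the stronger peak, number 828. For such peaks the recovery is that of the stronger site.

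**Figure D4:**
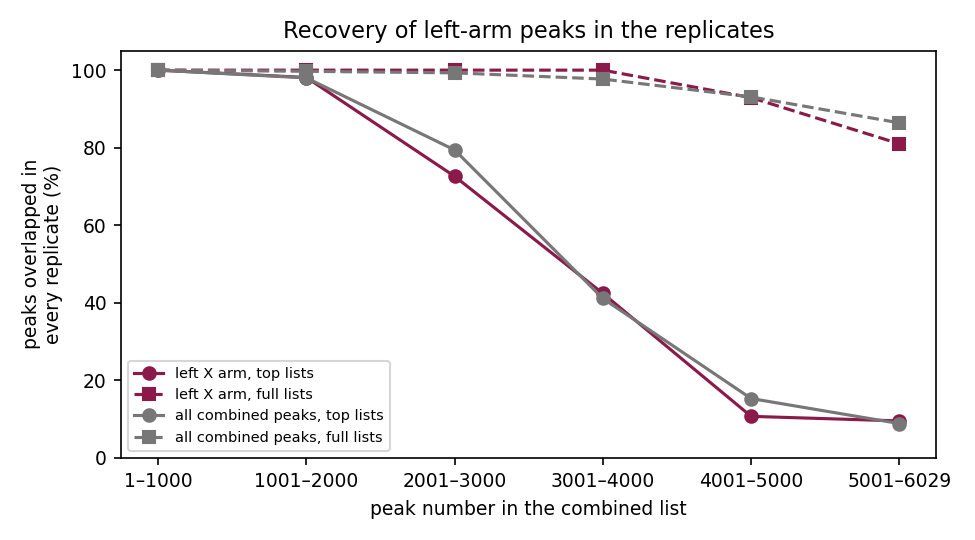
Share of combined peaks that were overlapped in every replicate, by peak number in the combined list, for the left X arm (dark red) and all combined peaks (grey), in the top lists (circles, solid) and the full lists (squares, dashed). The left-arm share in the top lists goes from 100% in the first class to 9.52% in the last and stays at 81% in the full lists. Some late left-arm peaks count as overlapped through the replicate peak of a stronger combined peak.

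In the full lists every left-arm peak was overlapped in at least 1 replicate, and 350 of 366 (95.6%, exact 95% interval 93 to 97.5%) in all 3, against 96.0% of all combined peaks. Of the other 16, 15 were found in 2 replicates. The exception, from 1096816 to 1097255 and number 5582 in the combined list, overlapped a peak of replicate 1 alone, number 2731. All 16 had combined numbers of 4055 or higher. Several left-arm peaks shared a replicate peak: the 363, 357 and 361 that were matched fell on 348, 341 and 345 different peaks of replicates 1, 2 and 3.

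Replicates placed left-arm sites in a similar order. Across the peaks matched in both replicates of a pair, Spearman's rho of the peak numbers was 0.674 for replicates 1 and 2 (354 peaks), 0.671 for 1 and 3 (358) and 0.696 for 2 and 3 (353), with a mean of 0.681; over all combined peaks the mean was 0.677. These are descriptions across sites that share their libraries, and no p was computed. Midpoints moved by a median of 23, 34.5 and 26 bp in replicates 1, 2 and 3, and by 13.5, 13 and 13.5 bp for the 35 sites among the first 500. Shifts over 200 bp were seen for 10, 15 and 20 of the 363, 357 and 361 matched peaks. The shifts over all combined peaks are not given here.

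**Figure D5:**
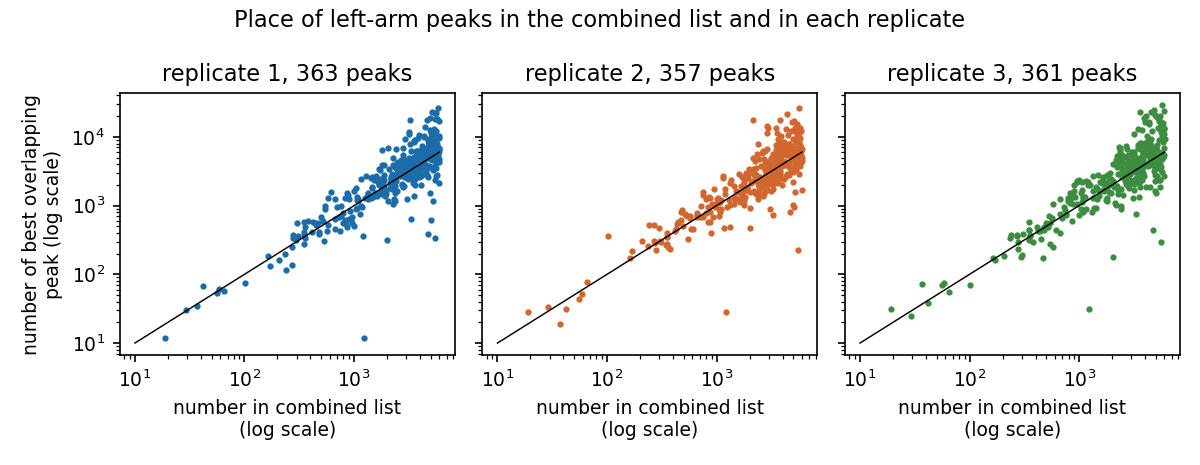
Number of the best overlapping replicate peak against the number in the combined list (both log scales) for the left-arm peaks matched in replicates 1, 2 and 3, 363, 357 and 361 in order, with a black line of equal numbers. Points keep near the line among the first peaks and spread upwards at the end of the list, and the isolated points far below the line include the repeated intervals.

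The 181 left-arm peaks among the first 3014 were found in every full list, and 67 of them had replicate numbers within a factor of 2 of each other (median ratio of highest to lowest 2.21). The same values over all combined peaks are not given here, so these describe the left arm alone. The most uneven of the 181 lay from 2688652 to 2688768, number 2137 in the combined list. It was number 2116, 17756 and 1081 in replicates 1, 2 and 3, a ratio of 16.4. The nearest top-list peak of replicate 2, number 1460, lay 1.39 kb away and did not overlap it. The site from 1524533 to 1524972 was number 3581, 7813 and 888, and that from 4138831 to 4139270 was number 6949, 921 and 2307. The sites from 2559417 and from 2613011 were numbers 14354 and 13237 in replicate 2, against 3134 and 2609 in replicate 1 and 2144 and 2099 in replicate 3. Replicate 2 was thus the lowest for 4 of these 5 sites, and replicate 1 for the site at 4138831, which lies in the tighter crowded window.

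Seen from the replicates, 77, 83 and 82 of the 374, 374 and 376 left-arm top-list peaks of replicates 1, 2 and 3 overlapped no combined peak (20.6, 22.2 and 21.8%), near the 19.4, 21.2 and 20.6% of the whole top lists. The best of these were numbers 1424, 1304 and 1803. Only 1 of 133 left-arm peaks at the ceiling of all 3 replicates was missing from the combined list, against 29 of 2088 on all nuclear chromosomes. It lay from 5361760 to 5362189, with numbers 3508, 1304 and 1968 in replicates 1, 2 and 3, and the nearest combined region was 22.5 kb away.

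At the inner boundary the last left-arm peak ran from 6109372 to 6109811, number 3161 in the combined list and 4663, 4529 and 3283 in the replicates. The first peak beyond it ran from 6201359 to 6201798, number 1941, and 3195, 2619 and 1185 in the replicates. The 91.5 kb between them held 0, 1 and 1 top-list peaks, so a small move of the boundary within this gap changes no member.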

How the data were processed

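Each of the 3 ChIP replicates has a deposited peak list, and 1 more list combines them. Per the file headers, coordinates are on WormBase WS220, and the source field names SPP, a peak caller, and IDR, a procedure that scores agreement between replicates. For the aligner, filters, controls, thresholds and the merging of lists, nothing is given in the sources used here. The deposited score of a peak is a −log10 FDR estimate, a unit read from the values. The authors' peak number was used for rank.

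Python 3.11.15, pandas 2.3.3, numpy 2.4.6 and scipy 1.17.1 were used. Sharing needed 1 bp, and a peak took the lowest number among those it overlapped. Shares carry exact Clopper-Pearson 95% intervals for counting error only. Densities were compared over replicates by exact sign-flip permutation tests. The density, overlap and spacing steps were tested on simulated lists, and the sign-flip step only on a fixed example. Named sites are the first 10 by number, the 3 widest regions, the densest 30-kb windows, the longest gaps, the 5 least even sites within the first 3014 peaks, the boundary peaks and ceiling sites missing from the combined list; other named sites were chosen after their values were seen. Members and comparisons were chosen with earlier results of these data known. Genes, promoters and sequences were not analysed here, since the gene table used is on another build (WBcel235).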

Additional observations from a re-analysis of the deposited data

How the results depend on the processing

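The density ratios were taken within each replicate. Between ChIP and input, no paired analysis was possible because input libraries with matching numbers were not used here. The ratio of left-arm to centre density turned from 0.893 to 1.13 with all deposited peaks, and, in alternatives chosen after seeing the data, to 1.21 with peaks below the top lists and 1.05 without the first 2 Mb of X. The ratio to the right arm was 1.01 in place of 0.801 with peaks below the top lists, also chosen afterwards. The left-arm and right-arm densities there, 232 ± 5.79 and 229 ± 6.34 peaks per Mb (SD, n = 3), differed by less than their spread. The cause was not tested. The other alternatives for these ratios kept the direction: ceiling peaks, joined regions, boundaries moved by 500 kb either way, 1 replicate left out, the combined list and, for the right arm, all deposited peaks and the count without the first 2 Mb. The share in every top list, 55.5%, was 35% with a reciprocal overlap of 50%, 95.6% with full lists, 90.1% in the first 3014 peaks and 63.1 to 65.8% with 1 replicate left out. With full lists the share of all combined peaks was 96.0%, and for the other alternatives it is not given here. In place of the 75.7% at the ceiling, 49.5% were in the first 3014. Of the left-arm top-list peaks of replicates 1, 2 and 3, 70.9, 43.3 and 63.8% were at their own ceilings. On all chromosomes 4248, 2662 and 4126 peaks of these replicates were at their ceilings, in top lists of 6029. The mean rho of 0.681 was 0.409 with the authors' value, 0.706 in the first 3014 peaks, 0.516 with a reciprocal overlap of 50% and 0.671 to 0.696 with 1 replicate left out. The share with a neighbour, 40.3%, was 12.6% within 1000 bp, 64.3% within 5000 bp, 16.8% in the first 3014 peaks and 35.2 and 35.9% in the top lists of replicates 1 and 2. Under these alternatives the share over regions of all chromosomes is not given here. The ceiling ties most peaks of the combined list and many top-list peaks of each replicate in the authors' value, and depth is unknown.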
